A study of Mus musculus with 2 samples.

Results

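The genes described here are 37 mouse genes for neuronal and synaptic adhesion proteins, taken as a named list of 10 protein families from the 21938 protein-coding genes of the annotation. The members are given by gene name, with no threshold on a measured value, and all 37 symbols were found in the annotation. The study is a DNase-seq experiment, in which the enzyme DNase I cuts chromatin where it is accessible and the sequenced cut sites pile up into peaks. It has 1 group and 2 libraries, biological replicates 1 and 2, both from whole retina of B6NCrl mouse embryos at embryonic day 14.5, with male and female tissue pooled. No treatment, mutant or other tissue was compared. Both libraries carry the same donor label and have separate biosample labels, so the spread between them may be partly technical. Replicate 1 was also run on an instrument model that was not used for replicate 2, and the instrument cannot be told apart from the replicate.

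Adhesion proteins on the surface of axons and dendrites hold neurites together in bundles, steer growing axons and, later, align the transmitter-releasing side of a synapse with the receiving side. Neurexins and the LAR receptor phosphatases sit on the releasing side and bind neuroligins, LRRTM proteins and other partners across the cleft, while Dscam, sidekick and contactin proteins sort retinal neurites into layers. At this stage the retina consists mainly of dividing progenitors and the first neurons to be born, among them ganglion cells, and most retinal synapses have not yet formed.

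Promoter and distal peaks were read for each gene, with coordinates on mm10 (GRCm38). A promoter peak lies within 1 kb of any annotated start site of the gene. A distal peak lies more than 1 kb from every annotated start site and is given to whichever protein-coding gene starts closest; the stretch of genome nearest to a gene is called its territory, and distal peaks are expressed per Mb of it. Each 150 bp peak carries a deposited score, which was turned into a percentile rank within its library with 100 as the strongest. Throughout, a pair of values is replicate 1 followed by replicate 2.

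Replicate 1 held 165269 distinct peaks and replicate 2 held 219308. The number of reads behind them is not given in the files, so depth is unknown and no interval on a single peak can be given. The progenitor marker Rax and all 5 ganglion cell markers (such as Pou4f2 and Isl1) had a promoter peak in both libraries. Of the markers of other tissues, microglia showed 1 of 4 in replicate 1 and 0 of 4 in replicate 2, endothelium, lens and pigment epithelium each showed 1 of 3 in both, and the Hox genes of hindbrain and spinal cord 0 of 3. The share of each cell type in the tissue was not measured, and in such a mixture fewer cells of a type and less accessible chromatin per cell cannot be told apart.

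Nearly all adhesion genes had an accessible promoter. In each library 36 of the 37 had a promoter peak, and they were the same 36 in both. Among all protein-coding genes 69.7% had one in replicate 1, 71.3% in replicate 2 and 68.8% in both. Cntn3 was the exception. A CpG observed over expected ratio of at least 0.6 around the 5′ start, usual for broadly active promoters, was found in 16 of the 37; all 16 were open, beside 98.2% of all genes at or above that ratio. The other 21 adhesion genes fell below the ratio and 20 of them were open, beside 43.8% of all such genes. Open here means a peak at any start, which need not be the start whose ratio was taken. At Dscaml1 the 5′ start (ratio 0.0913) was closed and the open start had a ratio of 0.640. The adhesion promoters were not the strongest. Counting genes without a promoter peak as 0, the median rank of the strongest promoter peak was 91.3 and 93.4 (mean 92.4 ± 1.48, SD, n = 2) for the adhesion genes and 89.2 and 91.1 for all genes, but over genes that had one it was 91.5 and 93.6 against 94.98 and 95.9. Among genes with a promoter peak and a ratio below 0.6, the median was 81.6 and 91.3 against 86.6 and 88.7, so its direction changed with the library. At or above 0.6 it was 95.4 and 96.3 against 96.5 and 97.3. No test between groups is possible with 1 group, so these are descriptions.

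Around these promoters the density of distal peaks varied widely. Of the 37 genes, 20 lay above the genome-wide density in both libraries, which was 43.9 and 61.0 distal peaks per Mb, and 15 lay below it in both. Among all genes 35.3% lay above it in both, and the share below it in both was not computed. Restricted to gene bodies of at least 100 kb, 11 of 24 adhesion genes were above, beside 45.7% of all such genes. Of the 21 adhesion genes with a territory of at least 0.5 Mb, 7 were above the genome-wide density in both libraries, beside 24.3% of all such genes. Of the 16 with less, 13 were, beside 35.9%.

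**Figure D1:**
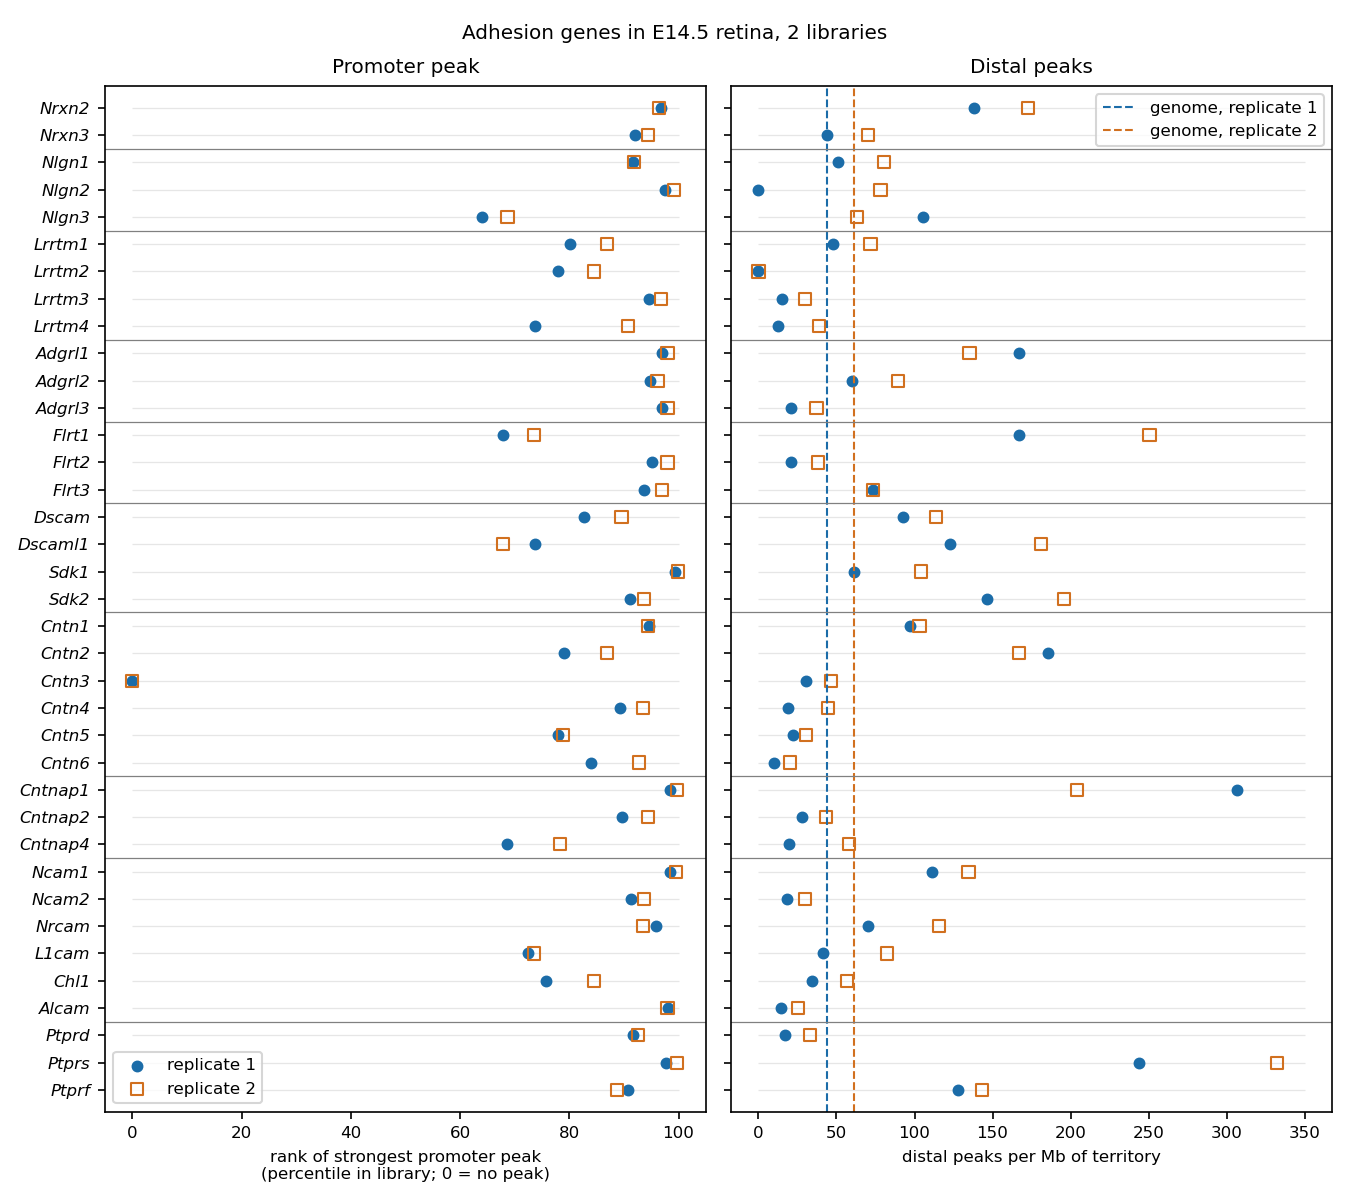
For each of the 37 adhesion genes, grouped by family between the grey lines, the left panel gives the percentile rank of the strongest promoter peak and the right panel the distal peaks per Mb of territory, with circles for replicate 1, squares for replicate 2 and dashed lines for the genome-wide densities of 43.9 and 61.0. Ranks crowd above 60 except for Cntn3 at 0, while densities run from 0 for Lrrtm2 to 332 for Ptprs.

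Neurexins are presynaptic receptors made in long alpha forms and, from a start inside the gene, short beta forms. Nrxn2 (chr19:6418731-6544169) had promoter ranks of 96.7 and 96.4 and 138 and 173 distal peaks per Mb. Nrxn3 spans 1612 kb on chromosome 12 (chr12:88722876-90334935), had ranks of 92.1 and 94.5, and its 75 and 120 distal peaks came to 44.0 and 70.4 per Mb. Both genes were therefore above the genome-wide density in both libraries, Nrxn3 only narrowly in replicate 1. Start sites within 2000 bp of each other were joined and counted as 1 start. Of the 5 starts of Nrxn3, the one at the 5′ end, annotated with noncoding transcripts only, was open, and so was the start 1090 kb downstream, whose transcripts encode a protein of at most 567 residues, with ranks of 83.6 and 89.97. The starts in between, at 71.6, 231 and 470 kb, encode up to 1571, 1100 and 1100 residues and had no peak in either library. Nrxn2 differed: its starts at 0 and 9.19 kb, with proteins of up to 1703 and 1710 residues, were open at ranks of 96.7 and 96.4 and of 82.2 and 83.6, and its start at 78.9 kb for 660 residues was open too, at 81.7 and 86.5. A noncoding start of Nrxn2 at 26.7 kb was open at 91.3 and 93.1, and its other 4 starts were closed.

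An accessible site 13.4 kb upstream of the Nrxn3 5′ end, chr12:88709396-88709545, ranked 91.8 and 97.3 and matched the RE1 element, the sequence read by the neuronal gene repressor REST. It is printed 5′ to 3′ on the forward strand of mm10 with the match, which lies on the reverse strand, in capitals.
Nrxn3 RE1: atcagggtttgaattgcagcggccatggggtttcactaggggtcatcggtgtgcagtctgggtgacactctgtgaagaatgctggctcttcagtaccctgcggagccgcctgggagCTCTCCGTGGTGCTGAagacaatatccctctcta
RE1 matches were rare. They occurred in 4 distal peaks of the adhesion genes in each library, 2 of Nrxn3 and 2 of Lrrtm3, or 0.294% and 0.188% of their distal peaks, against 0.284% and 0.233% of all distal peaks. The strongest distal peak shared by both libraries near Nrxn3 lay in an intron, 384 kb from the 5′ end and 86.5 kb from the nearest annotated start (chr12:89106516-89106665, ranks 93.8 and 95.4). The capitals mark a reverse-strand match to the CTCF core motif. CTCF is the factor that anchors chromatin loops.
Nrxn3: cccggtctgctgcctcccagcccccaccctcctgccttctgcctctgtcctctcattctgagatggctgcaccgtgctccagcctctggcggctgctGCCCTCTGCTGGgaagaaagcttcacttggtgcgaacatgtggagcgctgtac

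Neuroligins are postsynaptic partners of neurexins. Nlgn2 (chr11), found at inhibitory synapses, had one of the strongest promoters of the group at 97.5 and 99.1, and its territory of 0.0128 Mb held 0 and 1 distal peaks; its 5′ end lies so close to the start of Tmem256 that this peak cannot be given to one gene. Nlgn3, an X-linked gene, had a weak promoter, with ranks of 64.0 (the lowest open one of the group in replicate 1) and 68.7 (the next to lowest in replicate 2, after Dscaml1), and 105 and 63.1 distal peaks per Mb from only 5 and 3 peaks. The promoter order of this pair was the same in both libraries, and with so few distal peaks their densities give no order. Nlgn1, with a body of 906 kb, had 43 and 68 distal peaks, 50.8 and 80.4 per Mb. It was open at its 5′ end (84.9 and 89.6) and more strongly at a start 179 kb downstream (91.6 and 91.8), while the start at 199 kb was closed. Most of its intragenic peaks surrounded these starts: with the gene cut into 4 equal segments, the first held 52.5% of 40 and 58.5% of 65, and the last 0% in both libraries. The strongest shared one lay 6.94 kb beyond the second start, in an intron (chr3:26146296-26146445, ranks 94.2 and 97.5). It is shown with that near Nlgn3, which was intergenic and 18.2 kb downstream of the nearest start (chrX:101332496-101332645, ranks 93.8 and 97.3). Capitals mark TAATCC, the motif of Otx and Crx homeodomain factors, and the E-box CAGATG. The Nlgn3 peak held none of the motifs searched.
Nlgn1: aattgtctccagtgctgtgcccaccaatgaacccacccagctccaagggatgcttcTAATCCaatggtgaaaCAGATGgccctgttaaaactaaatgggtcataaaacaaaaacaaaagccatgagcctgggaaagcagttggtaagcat
Nlgn3: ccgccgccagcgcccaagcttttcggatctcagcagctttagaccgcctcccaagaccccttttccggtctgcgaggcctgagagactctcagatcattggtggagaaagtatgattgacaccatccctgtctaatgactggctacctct

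LRRTM proteins are leucine-rich postsynaptic ligands of neurexins. Each of the 4 genes had a single start and it was open in both libraries. Lrrtm3 ranked highest at 94.6 and 96.8, then Lrrtm1 at 80.1 and 86.9, Lrrtm2 at 78.0 and 84.6 and Lrrtm4 at 73.8 and 90.8. Lrrtm4 differed most between the replicates, and its order against Lrrtm1 and Lrrtm2 changed with the library. As a family they had the lowest pooled density, 18.4 and 38.5 distal peaks per Mb. Lrrtm4 held 13 and 41 in 1.05 Mb (12.3 and 38.9 per Mb), Lrrtm3 23 and 46 in 1.55 Mb (14.8 and 29.6) and Lrrtm2 none in 0.0172 Mb. Lrrtm1 alone was above the genome-wide value in both libraries, with 47.9 and 71.8. Lrrtm1, Lrrtm2 and Lrrtm3 lie inside the bodies of the alpha-catenin genes Ctnna2, Ctnna1 and Ctnna3, so peaks in or around their bodies can belong to either gene. Only 3 of 20 and 4 of 30 distal peaks of Lrrtm1 lay in its own body. Its strongest shared one lay in an intron of Ctnna2, 64.1 kb from the nearest Lrrtm1 start. Lrrtm2 also shares its start region with Ctnna1.

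Latrophilins are adhesion G protein-coupled receptors that bind FLRT proteins and teneurins. All 3 had strong promoters, at 96.9 and 98.0 for both Adgrl1 and Adgrl3 and 94.8 and 96.1 for Adgrl2. The distal density separated them. Adgrl1 held 21 and 17 peaks in 0.126 Mb (167 and 135 per Mb), Adgrl2 140 and 209 in 2.33 Mb (60.1 and 89.7) and Adgrl3 71 and 125 in 3.36 Mb (21.1 and 37.2). Adgrl2 thus had the most distal peaks of any of the 37 genes, and only 19 and 38 of them fell inside its own 175 kb body. Its peaks in replicate 1 included a dense run 900 to 906 kb from the 5′ end, at ranks of only 0.0608 to 8.47. Replicate 2 had no peak there, the nearest being at 883 and 914 kb. Both large latrophilin genes had a CpG-rich 5′ start. At Adgrl3 the 5′ start, with a CpG ratio of 0.937, was open and spanned by a hotspot (a broader accessible region) of 3606 and 3814 bp, whereas the start 290 kb downstream, which has 16 protein-coding transcripts and a ratio of 0.259, had neither a peak nor a hotspot. Adgrl2 showed the same arrangement: its 5′ start (ratio 0.822) was open and the start 35.8 kb downstream, with 7 coding transcripts and a ratio of 0.348, was closed. A further Adgrl2 start at 155 kb, with 2 coding transcripts and a ratio of 0.514, was open at 72.4 and 76.0, and those at 162 and 164 kb were closed. The internal starts of Adgrl1, at 23.0 and 34.5 kb, were closed as well. The 150 bp upstream of each of these starts are printed on the gene's strand with every CG in capitals; the genes were chosen for display after their values were seen.
Adgrl3 start 1: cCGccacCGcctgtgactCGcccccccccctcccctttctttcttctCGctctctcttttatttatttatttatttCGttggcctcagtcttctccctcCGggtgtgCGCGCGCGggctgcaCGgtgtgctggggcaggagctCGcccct
Adgrl3 start 2: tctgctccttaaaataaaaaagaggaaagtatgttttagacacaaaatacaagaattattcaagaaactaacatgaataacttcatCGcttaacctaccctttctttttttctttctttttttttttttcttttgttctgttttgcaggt
Adgrl2 start 1: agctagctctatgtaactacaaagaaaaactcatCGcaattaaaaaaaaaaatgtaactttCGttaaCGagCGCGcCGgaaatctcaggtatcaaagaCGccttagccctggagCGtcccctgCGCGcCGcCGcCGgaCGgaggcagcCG
Adgrl2 start 2: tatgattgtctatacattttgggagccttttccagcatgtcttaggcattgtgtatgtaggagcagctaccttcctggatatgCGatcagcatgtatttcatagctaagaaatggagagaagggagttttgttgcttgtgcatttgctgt
The windows are chr5:81019988-81020137, chr5:81309723-81309872, chr3:148990556-148990705 and chr3:148954788-148954937, with 12, 1, 15 and 1 CG. The closed Adgrl3 start lies in an exon that other transcripts of the gene enter by splicing, and the last 2 bases of its window are exonic; the closed Adgrl2 start lies in no such exon. The strongest shared distal peak of Adgrl2, in an intron 1.49 kb from the nearest start (chr3:148987756-148987905, ranks 95.8 and 95.7), was 70.7% G or C and held none of the motifs searched.
Adgrl2: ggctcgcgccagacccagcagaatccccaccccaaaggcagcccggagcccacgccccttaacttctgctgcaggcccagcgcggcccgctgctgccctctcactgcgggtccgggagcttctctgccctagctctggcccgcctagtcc

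FLRT proteins, which bind latrophilins and the guidance receptors of the Unc5 family, ranged from the dense to the sparse end. Flrt1 had a low promoter rank of 67.8 and 73.5 and a density of 167 and 251 per Mb from 12 and 18 peaks. Flrt2 showed the reverse, with ranks of 95.2 and 98.0 and 67 and 122 peaks in 3.19 Mb (21.03 and 38.3 per Mb). Flrt3 ranked 93.6 and 97.0 and held 23 peaks in each library, 73.2 per Mb in both. The stronger promoter of Flrt2 was 3.13 kb downstream of its 5′ start, which was itself open at 66.0 and 74.1. Flrt1 and Flrt3 lie inside Macrod1 and Macrod2. The strongest shared distal peak of Flrt1 lay in an intron of Macrod1 outside Flrt1, and that of Flrt3 in an intron of both Macrod2 and Flrt3 itself.

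Dscam, Dscaml1, Sdk1 and Sdk2 encode homophilic immunoglobulin proteins known in the retina for neurite spacing (the Dscam pair) and lamina choice (the sidekicks). They formed the densest family, with 96.6 and 137 distal peaks per Mb over 2.64 Mb, and all 4 genes were above the genome-wide density in both libraries. Sdk2 held 86 and 115 peaks (147 and 196 per Mb), Dscaml1 42 and 62 (123 and 181), Dscam 65 and 80 (92.5 and 114) and Sdk1 62 and 105 (61.5 and 104). That order was the same in both libraries. With all genes sorted into 10 classes by territory, the 4 genes fell in the highest, a wide class of 0.285 to 4.43 Mb. Against its pooled density they were 4.43 and 3.85, 3.70 and 3.55, 2.79 and 2.24, and 1.86 and 2.05 times as dense. Dscaml1, at 0.343 Mb, lies near the lower edge of that class, and the next class down had 56.4 and 76.2 per Mb. Promoter ranks followed another order: Sdk1 had the strongest promoter of all 37 genes at 99.3 and 99.9, Sdk2 was at 91.1 and 93.7, Dscam at 82.7 and 89.6, and Dscaml1 at 73.8 and 67.9. Dscaml1 opened at a coding start 3.66 kb inside the gene, and its 5′ start, annotated with noncoding transcripts, was closed. Sdk2 was open both at the 5′ end (90.5 and 93.7) and at a noncoding start 257 kb downstream (91.1 and 90.4). The internal starts of Dscam at 548 kb and of Sdk1 at 132 and 615 kb were closed. The strongest shared distal peak of Sdk2 lay in an intron 10.9 kb from the nearest start (chr11:114055036-114055185, ranks 95.6 and 97.8), and none of the motifs searched was in it.
Sdk2: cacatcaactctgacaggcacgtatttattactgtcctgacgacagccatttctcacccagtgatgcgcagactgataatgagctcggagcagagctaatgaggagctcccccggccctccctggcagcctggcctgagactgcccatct

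Contactins are immunoglobulin proteins anchored to the membrane by a lipid. Cntn1 was the strongest at 94.6 and 94.5, followed by Cntn4 at 89.2 and 93.4 and Cntn6 at 84.1 and 92.8. Cntn2, a marker of early axons also called TAG-1, was at 79.1 and 86.9, and Cntn5 at 78.0 and 78.9. Density split the family: Cntn2 (185 and 167 per Mb) and Cntn1 (97.1 and 103) were above the genome-wide value, and Cntn3 (30.7 and 46.5), Cntn5 (22.3 and 30.7), Cntn4 (19.0 and 44.7) and Cntn6 (10.1 and 20.2) were below it in both libraries. Cntn6 had the lowest density of the group among genes with at least 1 peak in each library. Cntn3 had 3 annotated starts, with CpG ratios of 0.475, 0.0844 and 0.0534, and all were closed. The 150 bp upstream of its 5′ start (chr6:102573102-102573251, gene strand) nevertheless hold 11 CG, about as many as the open Adgrl3 start.
Cntn3 start 1: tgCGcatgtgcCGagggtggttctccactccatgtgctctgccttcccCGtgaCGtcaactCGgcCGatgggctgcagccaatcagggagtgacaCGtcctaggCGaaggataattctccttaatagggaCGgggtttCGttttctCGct
Cntn3 was not without accessible chromatin: 39 and 59 distal peaks were nearest to it, 14 and 21 inside its body, and the strongest shared one, 8.81 kb inside the gene, ranked 90.8 and 91.1. Cntn1 was open at 0 and 110 kb and closed at 77.0 kb, and Cntn2 was open at 0, 9.37 and 19.9 kb and closed at 24.1 and 27.6 kb. Cntn4 was open at 0 and 441 kb, the latter at 86.2 and 91.5, and closed at its other 5 starts. Cntn5 was open at its 5′ end, and its start at 486 kb had no peak in replicate 1 and 1 of rank 9.06 in replicate 2.

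Contactin-associated proteins partner contactins along axons. Cntnap1, a component of the junction beside the node of Ranvier, ranked 98.5 and 99.8, but that 5′ end is noncoding and lies close to the start of Plekhh3. Its coding start 5.52 kb further on ranked 76.9 and 86.9 and lies close to the start of Ccr10, so neither peak can be given to Cntnap1 alone. Its 306 and 204 peaks per Mb rest on 3 and 2 peaks. Cntnap2, 2245 kb long, ranked 89.6 and 94.5, a value that belongs to a start 2185 kb from the 5′ end whose transcripts encode at most 108 residues. The 5′ start, which encodes 1332 residues, ranked 84.9 and 89.97. Intragenic peaks of Cntnap2 leaned to the 3′ end, with 56.3% of 71 and 48.7% of 115 in the last of 4 equal segments. Cntnap4 ranked 68.6 and 78.3 and had 18 and 53 distal peaks (19.7 and 58.1 per Mb), 2.94 times as many in replicate 2, and its internal starts at 161 and 204 kb were closed.

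The cell adhesion molecules of the NCAM, L1 and ALCAM type guide and bundle axons, including those of ganglion cells. Ncam1 ranked 98.5 and 99.5, Alcam 98.1 and 98.0, Nrcam 95.9 and 93.4, Ncam2 91.3 and 93.7, Chl1 75.7 and 84.6 and L1cam 72.4 and 73.5. Ncam1 and Alcam, nearly equal at the promoter, differed at the distal level: Ncam1 held 62 and 75 peaks in 0.557 Mb (111 and 135 per Mb), Alcam 24 and 42 in 1.66 Mb (14.5 and 25.3). Nrcam was dense (70.1 and 115), Chl1 (34.2 and 57.0) and Ncam2 (18.5 and 29.98) were below the genome-wide value, and L1cam (41.3 and 82.6) was below it in replicate 1 and above it in replicate 2 on 2 and 4 peaks. L1cam was open at its coding starts 15.3 and 25.8 kb inside the gene as well as at the 5′ end, which is shared with Arhgap4. Nrcam opened at noncoding starts 110 and 218 kb inside the gene, and Chl1 at both of its starts. Internal starts of Ncam1 at 230 and 256 kb, of Ncam2 at 265 kb and of Alcam at 157, 183 and 185 kb were closed. The strongest shared distal peak of Ncam1 lay in an intron, 175 kb from the 5′ end and 55.7 kb from the nearest start (chr9:49624196-49624345, ranks 94.6 and 97.3), and held the E-box CAGCTG and the Sox motif ACAATG, in capitals.
Ncam1: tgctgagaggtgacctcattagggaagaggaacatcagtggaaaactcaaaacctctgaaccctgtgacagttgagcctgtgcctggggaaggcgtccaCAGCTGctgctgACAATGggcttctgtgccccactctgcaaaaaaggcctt

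LAR receptor phosphatases are presynaptic organisers that bind postsynaptic leucine-rich proteins. Ptprs, which also binds proteoglycans, joined a strong promoter (97.7 and 99.7) with the highest density of the genes with more than 3 peaks, 22 and 30 in 0.0903 Mb (244 and 332 per Mb). Ptprf ranked 90.8 and 88.7 with 128 and 143 per Mb, and Ptprd 91.6 and 92.5 with 16.9 and 32.8. Ptprd is the largest of the 37 genes at 2271 kb and had 65 and 126 distal peaks. Its peaks also leaned to the 3′ end, with 50.9% of 55 and 47.0% of 100 in the last of 4 equal segments. That segment holds the start at 1762 kb, open at 90.8 and 92.5, whose transcript encodes the longest protein of the gene, 1912 residues. The 5′ start of Ptprd, with noncoding transcripts, was open at 91.6 and 92.2, a weaker one at 1887 kb at 45.5 and 71.5, and the other 7 were closed. Ptprs was open at 0, 14.3 and 51.0 kb and closed at 5 other starts; its second start ranked highest. Ptprf was open at 0 and 73.7 kb and closed at 55.0, 60.3 and 80.7 kb. The strongest shared distal peak of Ptprf, in an intron 14.6 kb from the nearest start (chr4:118276576-118276725), ranked 95.2 and 98.4 and held none of the motifs searched.
Ptprf: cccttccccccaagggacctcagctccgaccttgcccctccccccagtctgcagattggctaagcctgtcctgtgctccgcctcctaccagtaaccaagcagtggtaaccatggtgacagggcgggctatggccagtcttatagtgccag

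Over the whole group, open and closed starts often stood in the same gene. The 37 genes had 134 starts, of which 64 (47.8%, exact Clopper-Pearson 95% interval 39.1 to 56.6%, counting error only) had a peak in both libraries and 66 in neither. None of those 66 touched a hotspot in either library. Peaks and hotspots come from the same libraries, so this is no separate evidence, and the count was not made over all genes. At the 5′ end 35 of 37 starts were open, beside 65.2% of all genes, the closed ones being those of Cntn3 and Dscaml1. Of the internal starts 29 of 97 were open (29.9%, interval 21.02 to 40.04%), beside 18.6% of all internal starts. Of the 30 genes with several starts, 23 had an open and a closed one, beside 69.4% of all such genes. The 5′ start ranked highest in both libraries in 21 of the 30, beside 67.3%, so both counts were near the background.

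Starts differed by composition and, inside the genes, by annotation. All 25 starts with a CpG ratio of at least 0.6 were open, 9 of them internal, and 39 of the 109 below it were (35.8%). For all genes these shares were 97.7% and 23.0%. Among internal starts alone, all 9 at or above the ratio and 20 of the 88 below it (22.7%) were open. Over all genes the shares of internal starts were 93.8% and 15.2%. Internal starts with a protein-coding transcript were open in 20 of 53 cases and those without in 9 of 44, beside 27.0% and 12.8% of such starts over all genes. In 43 internal starts the annotated position fell in, or within 5 bp of, a later exon of another transcript of the same gene; 7 of these were open (16.3%), beside 22 of 54 (40.7%) outside such exons. Among all genes the shares were 10.03% and 24.7%. Whether such transcripts are cut short in the annotation was not tested.

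**Figure D2:**
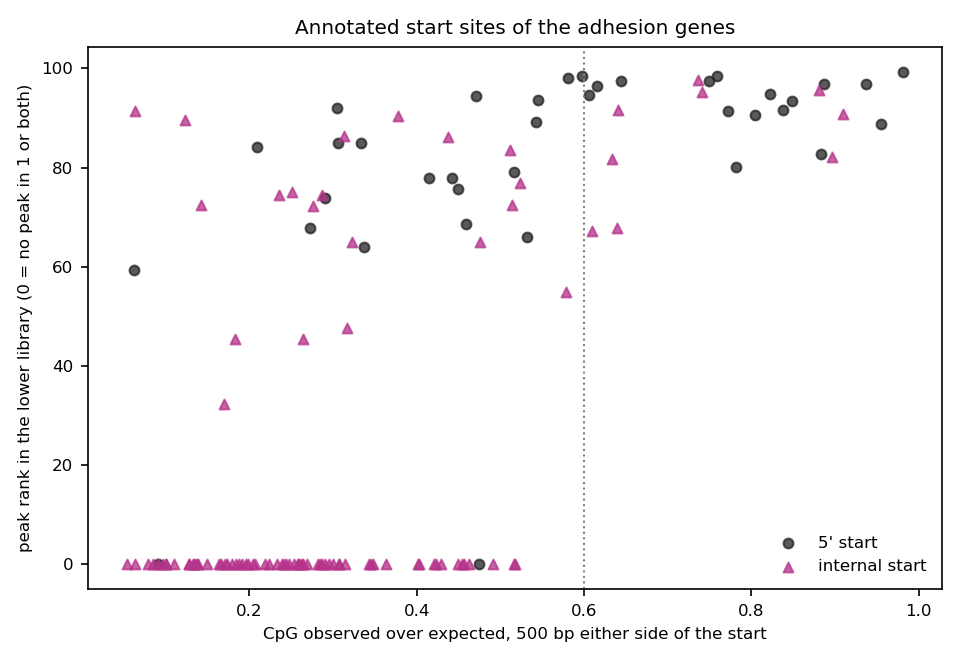
Each point is 1 of the 134 annotated starts of the adhesion genes, plotted by CpG observed over expected ratio and by peak rank in the library where it ranked lower, with circles for 5′ starts and triangles for internal ones. All 25 starts to the right of the dotted line at 0.6 had a peak in both libraries, and the points at 0 below it are mostly internal starts.

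**Figure D3:**
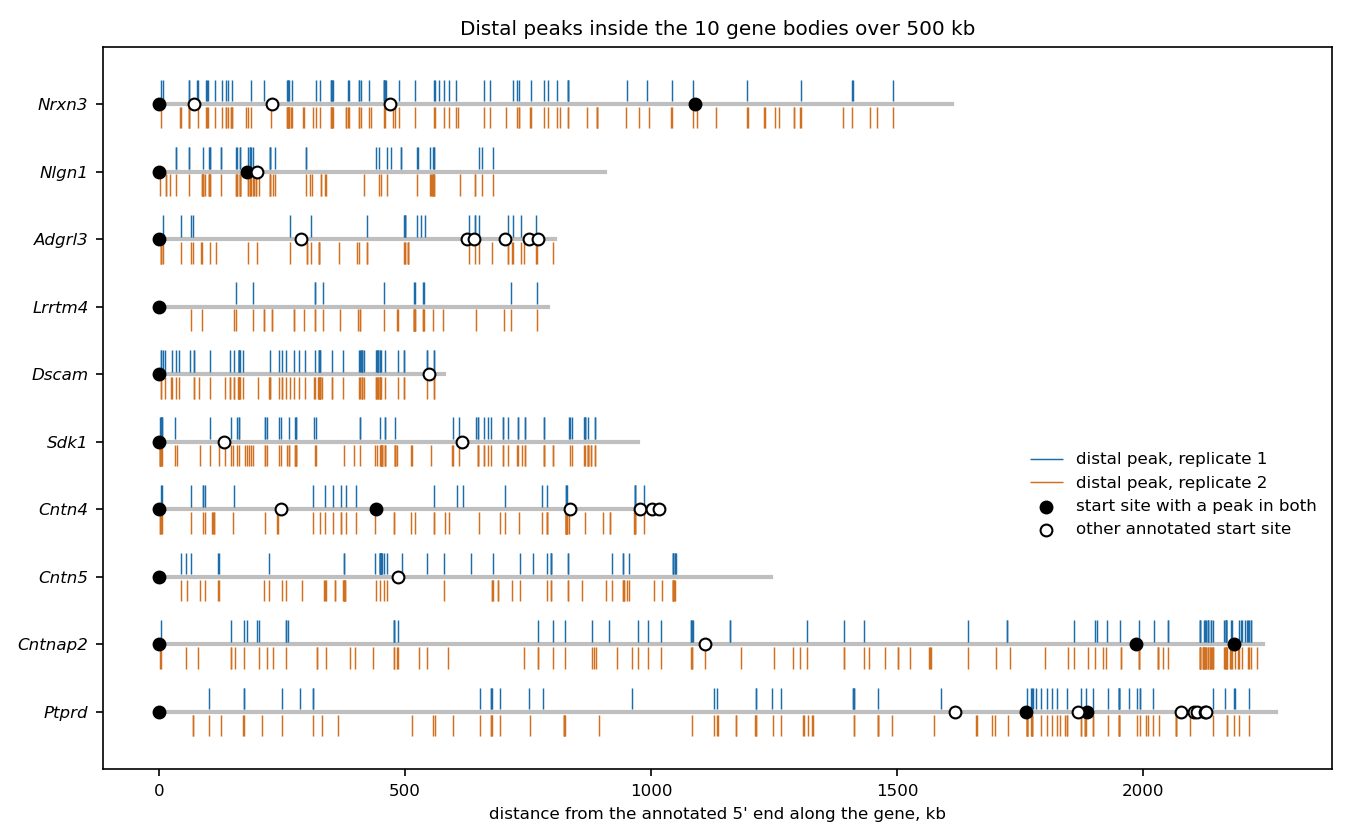
Distal peaks (ticks, replicate 1 above and replicate 2 below each line) are drawn along the bodies of the 10 adhesion genes longer than 500 kb, against distance from the 5′ end in kb, with filled circles for starts that had a peak in both libraries and open circles for other starts. Peaks of Nlgn1 gather in its first of 4 equal segments (52.5% and 58.5%), and those of Cntnap2 (56.3% and 48.7%) and Ptprd (50.9% and 47.0%) in the last, while the first and last segments of Dscam (20.7% and 27.6% in replicate 1) and Sdk1 (27.3% and 25.5%) differ less.

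In all, 1359 and 2126 distal peaks were nearest to an adhesion gene, in 38.1 Mb. That gave a pooled density of 35.7 and 55.8 per Mb (mean 45.7 ± 14.2, SD, n = 2), which is 0.813 and 0.915 times the genome-wide density, while the median gene had 47.9 and 73.2 per Mb beside 34.2 and 50.03 over all genes. With peaks within 10 kb of a start left out, the pooled comparison gave 1.07 and 1.20 times. The sequence within 10 kb of starts stayed in the territories and in the genome length, so these values do not show a reversal of density. The adhesion genes were long, with a median body of 273 kb against 17.4 kb over all genes, and 26 of them fell in the highest of 10 classes of territory, where the density over all genes was 33.1 and 50.9. Compared with genes of the same class, 20 of 37 were above in both libraries, beside 29.9% of all genes, and 13 below in both. The 29.9% covers all 10 classes. The share within the highest class alone and the share of all genes below were not computed.

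**Figure D4:**
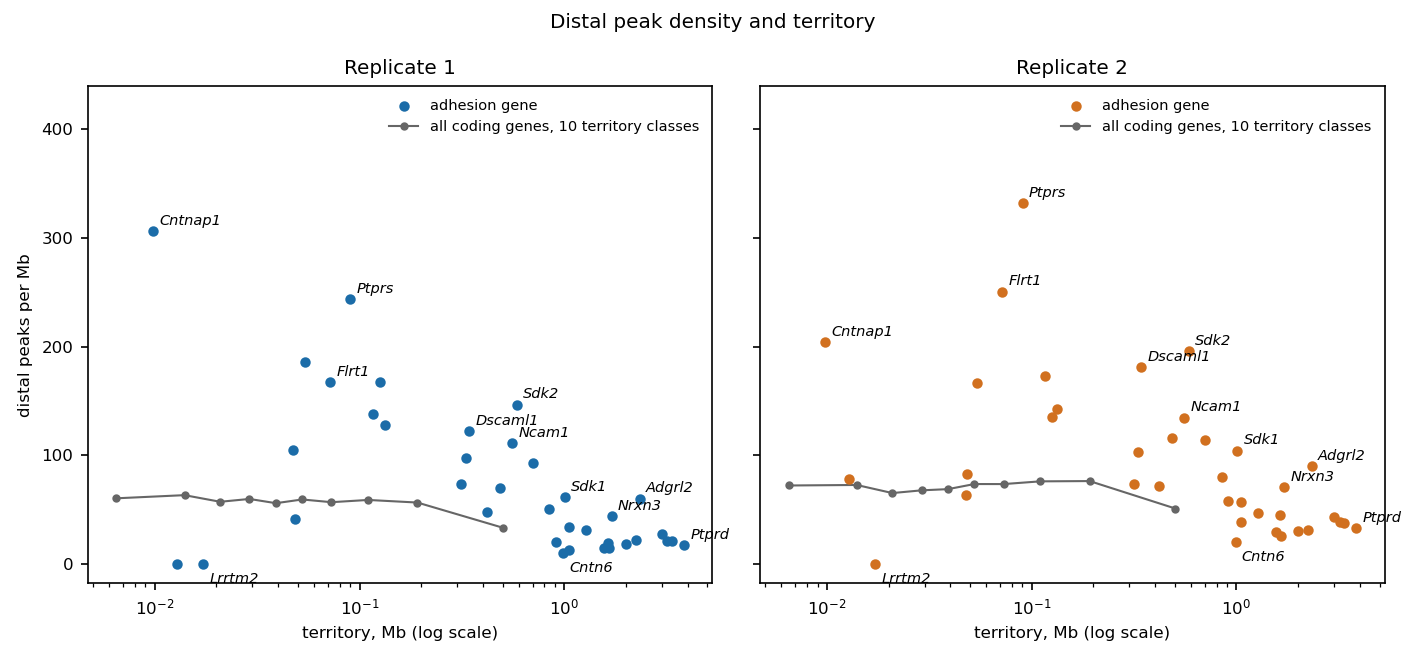
Distal peaks per Mb of each adhesion gene are plotted against its territory in Mb on a log scale, 1 panel per library, with the grey line joining the pooled density of all protein-coding genes in 10 classes of territory. Most genes under 0.5 Mb lie above the line, and above 1 Mb Adgrl2, Nrxn3, Sdk1 and Chl1 lie above its last point (33.1 and 50.9) while Ptprd and others lie below.

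Taking the 24 bodies of at least 100 kb together, the first of 4 equal segments held 29.1% and 29.5% of intragenic distal peaks and the last 25.0% and 23.5%, beside 27.3% and 27.4%, and 21.2% and 21.05%, for all genes of that length. Genes that lean to opposite ends offset each other in such a sum, so it does not show how many single genes are skewed. Nrxn3, like Nlgn1, leaned to the 5′ end, with 44.1% and 44.8% in the first segment and 5.88% and 12.4% in the last. Cntnap2 and Ptprd leaned to the 3′ end. Many distal peaks of the 37 genes lay far from any start. The gene's own body held 58.4% and 57.8% of them (58.1 ± 0.384%, SD, n = 2), beside 41.6% and 42.0% for all genes, and 46.3% and 52.7% were more than 100 kb from the nearest start, beside 23.1% and 26.2%. Within the bodies alone the density was 48.5 and 75.1 per Mb, beside 51.3 and 71.9 in all gene bodies. Their strength was ordinary, at a median rank of 43.2 and 42.8 against 43.2 and 44.4. Replicate 2 had an overlapping peak for 73.2% of those in replicate 1, and the reverse share was 45.2%. Replicate 2 had 1.56 times as many distal peaks as replicate 1 at the adhesion genes and 1.39 times in the genome. In the highest class of territory, which holds 26 of the 37, the density over all genes also rose, from 33.1 to 50.9 per Mb. Replicate 2 had more at 31 of the 37 genes, fewer at 4 (Nlgn3, Adgrl1, Cntn2 and Cntnap1) and as many at Flrt3 and Lrrtm2. The same count was not made over all genes. A distal peak present in both libraries was found for 35 genes, and the strongest such peak lay in an intron in 26 cases, between genes in 9 and in an exon in 0. These counts were not made over all genes, so they do not set the adhesion genes apart. The 7 genes whose peak is printed had the highest ranks in the lower library, 2 of them tied.

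Short motifs were counted in the 150 bp of every distal peak on both strands, as matches of letters and not as bound sites. TAATTA, read by many retinal homeodomain factors, was in 8.31% and 11.1% of the adhesion genes' distal peaks and in 5.77% and 7.17% of all distal peaks. ATCAAT, the Onecut motif, was in 8.31% and 9.92%, against 5.66% and 6.66%. Both motifs were thus more frequent near the adhesion genes in each library. For TAATCC the shares were 6.62% and 7.81% against 5.79% and 6.39%, and for ACAATG 11.0% and 11.9% against 9.76% and 10.3%. The E-box CAGCTG was slightly less frequent (13.0% and 13.9% against 14.7% and 15.2%), and CAGATG was at 16.3% and 17.5% against 16.4% and 17.0%. The CTCF core was in 3.09% and 2.30%, against 5.06% and 3.94%. The median G and C content was lower in the adhesion genes' peaks, 46.7% and 46.0% against 49.3% and 48.7%; its part in these shares was not tested.

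Other genes of synapse assembly gave a similar count at the promoter. Of 41 further organisers and partners (such as neurexophilins, cerebellins, Slitrk and netrin-G proteins), 40 had a promoter peak in both libraries and 19 were above the genome-wide distal density in both, with a median of 40.6 and 65.6 per Mb. The densest with a territory of at least 100 kb were Nectin1 (149 and 157), Ntng2 (138 and 156) and Mdga1 (133 and 189), and the sparsest Slitrk4 (2.29 and 4.57), Slitrk2 (4.31 and 14.4) and Lrfn5 (5.01 and 10.7). Of 25 scaffold and release genes all 25 were open and 11 were above, with a median of 48.1 and 56.5. Shank2, a postsynaptic scaffold, was among the densest at 83.5 and 116, and the sparsest were Dlg3 (5.50 and 44.0), Pclo (11.8 and 30.6) and Gphn (25.3 and 23.2), whose order differed between the libraries. Over all protein-coding genes 68.8% had a promoter peak in both libraries and 35.3% were above, with a median of 34.2 and 50.03 per Mb. The pooled density was 27.3 and 43.7 for the organisers and 40.5 and 61.2 for the scaffold and release genes, beside 43.9 and 61.0 genome-wide. The median CpG ratio was 0.657 for the organisers and 0.707 for the scaffold and release genes. Of all genes at or above 0.6, 98.2% had a promoter peak in both.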

How the data were processed

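The deposited files hold, for each of the 2 libraries, a list of 150 bp peaks and a list of hotspots on mm10, called separately per library according to the deposited file lists. Aligner and caller are not given in the sources used. The authors' peak score runs from 1 to 150 and its meaning is not stated, so it was used only as a rank within its library. Deposited hotspots carry a −log10 false discovery rate whose highest value is 100. Depth is unknown because read numbers are not given, and precision is therefore described by the spread between the libraries.

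Repeated peak lines (34 and 56) were counted once, and peaks off the assembled chromosomes (232 and 166) were left out. Start sites, genes and exons came from GENCODE M21. Scripts used Python 3.11.15, numpy 2.4.6, pandas 2.3.3, scipy 1.17.1 and pysam 0.24.0 and were tested on simulated data. An overlap of 1 bp counted. The CpG ratio was taken 500 bp either side of a start. Intervals on shares are exact Clopper-Pearson 95% intervals and cover counting error only. With 1 group no test between conditions exists.

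The 37 genes, the lists and the rules were chosen with earlier results of these data known. Values were computed for all members. Named by rule were members without a promoter peak, the 10 strongest promoters, the 8 densest and 8 sparsest members, those with an open and a closed start, and the first and last of each family. Peak sequences were printed for the 6 highest shared distal peaks, plus 1 tied with the last. The RE1 site, the start sequences, the split of starts by later exons and the promoter ranks over open genes were added after seeing the values. Alternatives were other windows, only coding starts, peaks at or above the library's median score, lists of equal length, other distal limits and single libraries.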

Additional observations from a re-analysis of the deposited data

How the results depend on the processing

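All 8 summary values were recomputed under other settings, and the count of 36 genes with a promoter peak moved only to 35, with the 5′ end alone. With windows of 2 kb the share of open starts moved from 47.8% to 56.8%. The mean of the median distal densities moved from 60.5 per Mb to 38.0 beyond 10 kb from starts and 27.7 with only peaks at or above the library's median score, the pooled density from 45.7 to 19.8 with those stronger peaks and 61.8 inside gene bodies, and the share in the gene's own body from 58.1% to 54.2% beyond 10 kb and 63.3% with the stronger peaks. With a single library, the ranges were 36 to 36 promoters, 91.3 to 93.4 for the promoter rank, 47.8% to 50.7% of starts, 47.9 to 73.2 and 35.7 to 55.8 per Mb for the median and pooled densities, 20 to 22 genes above the genome, 45.2% to 73.2% shared and 57.8% to 58.4% in the gene's own body. Territories were kept whole at every distal limit and with the stronger peaks, so densities per Mb of territory fell as peaks were left out. With the stronger peaks the genome-wide density was 19.4 and 26.9 per Mb, and the pooled density was 0.804 and 0.893 times it. The cause of the other moves was not tested. Counts of peaks per gene under about 5 are the least certain values, and genes that share a start or lie in another gene cannot be separated.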
